A study of Danio rerio with 12 samples.

Results

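The genes described are 9 membrane repair and annexin genes of the zebrafish: dysf, capn3a, capn3b, cav3, anxa1a, anxa2a, anxa5b, anxa6 and s100a10b. They were chosen by name, with earlier results of these data known, and all 9 were found among the 32520 genes of the count tables. RNA was sequenced from trunk muscle and from extraocular muscle (EOM), which turns the eyeball, of fish aged 20 months. Fish of the AB strain served as wild type (WT) and were compared with desma-/-;desmb-/- double mutants. These carry mutations in both genes for desmin, the intermediate filament protein of muscle, and the WT fish descend from the line used to make them. The submitters' summary of the design calls the same fish a knock-down. The stated question was how EOM withstands muscular dystrophy. There were 4 groups of 3 libraries (WT EOM, mutant EOM, WT trunk and mutant trunk). The titles call each library a numbered group, and the labels do not say how many fish went into a library, nor whether EOM and trunk libraries share fish, so p-values measure the spread between these libraries, which may be partly technical.

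Muscle fibres tear at their surface membrane during contraction and reseal it when calcium enters through the tear. In mammals dysferlin, encoded by dysf, is a calcium-binding membrane protein that takes part in bringing vesicles to the tear. Annexins bind membrane lipids in the presence of calcium and gather at the wound, and S100A10 is a small protein that pairs with annexin A2. Caveolin 3, encoded by cav3, builds the caveolae of the muscle membrane, and calpain 3 is a protease of muscle bound to titin. In humans, loss of dysferlin or calpain 3 causes limb-girdle muscular dystrophies, and variants of caveolin 3 cause further muscle diseases.

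Libraries held 46090609 to 74146170 sense reads in genes. The genotype labels were matched by desma, at 553 to 691 CPM (reads per 1000000 reads in genes, with TMM scaling) in the WT libraries and 17.5 to 48.7 CPM in the mutant libraries. The desmb part of the label was not checked here. All 7 matched markers of muscle fibres were detected in every group. Their summed level was 30231 to 36687 CPM in WT EOM and 25280 to 28849 CPM in mutant EOM, without overlap, and 102684 to 130973 CPM in WT trunk and 113450 to 143424 CPM in mutant trunk, with overlap. None of the 7 was called in EOM and 1 was called lower in trunk (edgeR), and their part in the levels of the genes below was not tested. Summed markers of other cells moved with genotype in both directions. The summed level of 10 leukocyte markers was 643 to 677 CPM in WT EOM and 919.9 to 1170.5 CPM in mutant EOM, and 215 to 231 CPM in WT trunk and 391 to 673 CPM in mutant trunk. For 9 fibroblast markers it was 1331 to 1364 CPM in WT EOM and 1654 to 1963 CPM in mutant EOM, and 405 to 623 CPM in WT trunk and 751 to 862 CPM in mutant trunk. Of the leukocyte markers lyz stayed under 3 reads in every library of WT EOM, WT trunk and mutant trunk, whereas no fibroblast marker did in any group. Sums that were lower in mutants without overlap were those of 4 endothelial markers in EOM (119.6 to 147.7 against 98.2 to 108.2 CPM) and trunk (269 to 281 against 217 to 241.5 CPM) and of 4 erythrocyte markers in EOM (1034 to 2286 against 703 to 1010.2 CPM). The sum of 8 photoreceptor markers was 7.13 to 44.2 CPM in WT trunk and 0.186 to 0.745 CPM in mutant trunk. Of these markers 5 stayed under 3 reads in every mutant trunk library and 1 in every WT trunk library. In EOM the sum overlapped between genotypes, at 14.3 to 167 CPM in WT and 19.4 to 75.8 CPM in mutants. The sums of the markers of epithelium and skin, smooth muscle, and nerve and myelin overlapped between genotypes in both muscles.

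Of the 9 genes, capn3b rose in the mutants in both muscles. In trunk cav3 and anxa5b rose as well, and no member fell in either muscle by the test (edgeR quasi-likelihood test, Benjamini-Hochberg adjusted p under 0.05 over all genes tested). Thus 1 of the 8 tested members was called in EOM, where 3.56% of all 18980 tested genes were called, and 3 of 8 were called in trunk, where 8.4% of 17342 genes were called. The calls in EOM over all genes were higher in 60.6%, or in 73.7% with unscaled library totals. All 3 mutant libraries lay above all 3 WT libraries for 3 of the 8 members in EOM and 5 in trunk, as they did for 13.4% and 15.7% of all genes tested. The remaining gene, capn3a, had too few reads to be tested. The median log2 fold change of the 8 members was 0.26 in EOM and 0.53 in trunk, against −0.02 and −0.01 over all genes tested. As the members were chosen with earlier results of these data known, setting them against all genes is not an independent test.

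**Figure D1:**
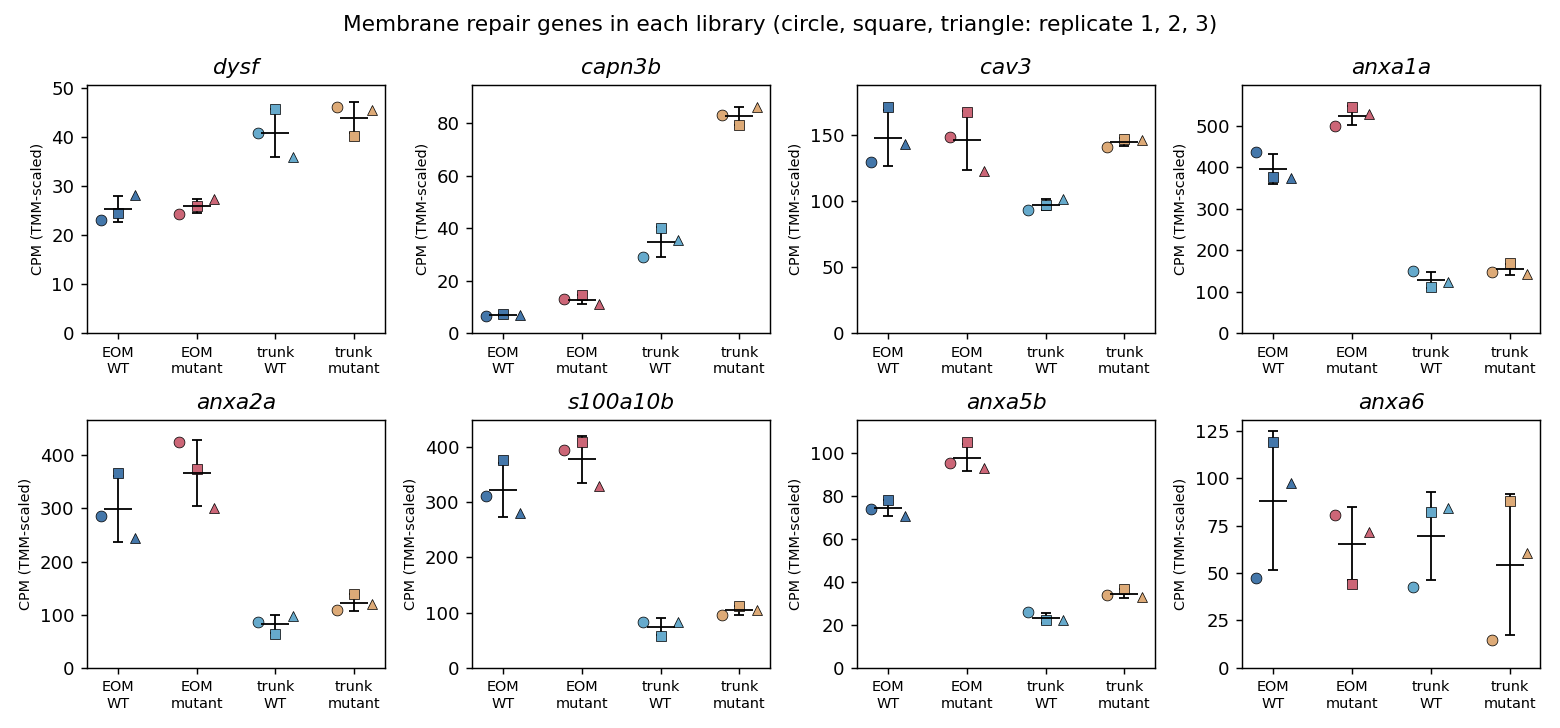
Level in TMM-scaled CPM (linear axis from 0) of 8 genes in each of 12 libraries. Horizontal marks and bars are the mean ± SD of 3 libraries, and circles, squares and triangles are replicates 1, 2 and 3. The 3 mutant libraries lie above the 3 WT libraries of the same muscle for capn3b and anxa5b in both muscles, for anxa1a in EOM, and for cav3, anxa2a and s100a10b in trunk, and the anxa6 libraries of each group are spread widely.

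Dysferlin transcripts did not differ detectably between genotypes. Levels of dysf (ENSDARG00000007370.13) were 23.06, 24.5 and 28.2 CPM in WT EOM replicates 1, 2 and 3 and 24.4, 26 and 27.3 CPM in mutant EOM. In trunk they were 40.7, 45.6 and 35.9 CPM in WT and 46, 40.3 and 45.5 CPM in mutants. The genotypes overlapped within each muscle, and with TMM scaling every trunk library lay above every EOM library. That separation depended on the scaling. With unscaled library totals the log2 fold change of WT EOM against WT trunk was −0.08 (edgeR, adjusted p = 0.662). The log2 fold change of mutant against WT was 0.04 ± 0.12 (SE) in EOM (edgeR, adjusted p = 0.905) and 0.12 ± 0.13 in trunk (edgeR, adjusted p = 0.636). In EOM the sign of this small value turned in fits that left out a library, which spanned −0.021 to 0.12.

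The calpain 3 genes differed in whether they were detected at all. Both are given the same symbol in the symbol table supplied, and the copies were told apart by their neighbouring genes, so their names depend on that assignment. The copy named capn3a (ENSDARG00000041864.7) lies beside ganc and a znf106 gene, and the copy named capn3b (ENSDARG00000043035.7) beside znf106b and nrbp1. For capn3a the tables held 21 sense reads in all 12 libraries together, with 10 of them in mutant EOM replicate 2. The other 11 libraries held at most 3 reads each, and the strand opposite to the gene held 17 reads in all. The floor of 3 reads corresponds to 0.0377 to 0.0745 CPM and covers counting error only. It was reached in mutant trunk replicate 2, with 3 reads (0.0573 CPM), and in mutant EOM replicate 2 (0.129 CPM), and capn3a was below it in the other 10 libraries.

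In contrast, capn3b was detected with 435 to 4162 reads in every library. Its level was 6.65, 7.34 and 7.07 CPM in WT EOM replicates 1, 2 and 3, and 12.9, 14.3 and 11 CPM in mutant EOM. In trunk it was 28.9, 40.2 and 35.4 CPM in WT and 83.1, 79.2 and 86.1 CPM in mutants. The 4 groups did not overlap with each other in any library, in the order WT EOM, mutant EOM, WT trunk and mutant trunk. The rise in EOM was 1.82-fold, from 7.02 ± 0.35 to 12.7 ± 1.66 CPM (SD, n = 3 each), a log2 change of 0.86 ± 0.13 (edgeR, adjusted p = 0.0152). The rise in trunk was 2.39-fold, from 34.8 ± 5.69 to 82.8 ± 3.44 CPM, a log2 change of 1.26 ± 0.15 (edgeR, adjusted p = 0.00111). The trunk call was kept in all 14 alternative fits. The EOM call was lost without mutant EOM replicate 1 (edgeR, adjusted p = 0.0815) or 2 (0.0844) and without WT EOM replicate 1 (0.0729), at log2 fold changes between 0.77 and 0.86, and DESeq2 gave an adjusted p of 3.07e-05. In these bulk samples a change in the number of cells of a type and a change in RNA per cell cannot be told apart, here and below.

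Caveolin 3 transcripts rose in trunk. Levels of cav3 (ENSDARG00000024141.4) were 92.9, 96.7 and 101.2 CPM in WT trunk replicates 1, 2 and 3, and 141, 146 and 146 CPM in mutant trunk. In EOM they were 129, 170.5 and 143 CPM in WT and 148, 167 and 122 CPM in mutants. All 3 mutant trunk libraries lay above all 3 WT trunk libraries, whereas the EOM groups overlapped. The rise in trunk was 1.49-fold (log2 fold change 0.58 ± 0.13, edgeR, adjusted p = 0.0198), and in EOM the log2 fold change was −0.02 ± 0.15 (edgeR, adjusted p = 0.972). The trunk call was lost without mutant replicate 1 (edgeR, adjusted p = 0.0831), 2 (0.0719) or 3 (0.0548) and without WT replicate 1 (0.0916), and unscaled library totals gave an adjusted p of 0.054. The log2 fold change stayed between 0.53 and 0.62 in all 14 alternatives. With unscaled library totals or without WT EOM replicate 2 or mutant EOM replicate 3, the small EOM value turned positive, to at most 0.10.

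**Figure D2:**
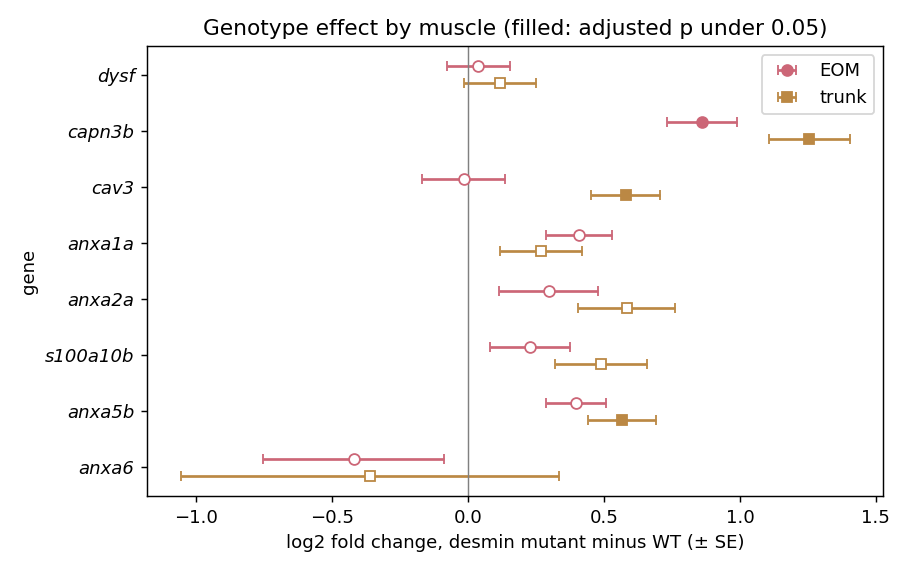
Log2 fold change of mutant against WT in EOM (circles) and in trunk (squares) for 8 genes, with bars of 1 standard error from the edgeR fit. Filled symbols passed an adjusted p of 0.05: capn3b in both muscles, and cav3 and anxa5b in trunk.

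Among the annexins, anxa5b rose in mutant trunk. Annexin A5 forms planar arrays on membranes that expose phosphatidylserine. Levels of anxa5b (ENSDARG00000016470.9) were 26.1, 22 and 22.1 CPM in WT trunk replicates 1, 2 and 3, and 33.8, 36.9 and 32.8 CPM in mutant trunk. In EOM they were 74.1, 78.4 and 70.8 CPM in WT and 95.4, 105.1 and 93.3 CPM in mutants. In both muscles all 3 mutant libraries lay above all 3 WT libraries. The rise in trunk was 1.48-fold (log2 fold change 0.57 ± 0.13, edgeR, adjusted p = 0.0215), and in EOM the log2 fold change of 0.40 ± 0.11 was not past the threshold (edgeR, adjusted p = 0.0914). The trunk call was lost without mutant replicate 1 (edgeR, adjusted p = 0.0846) or 2 (0.0976), without WT replicate 2 (0.0541) and with unscaled library totals (0.0559). DESeq2 called anxa5b in both muscles (adjusted p = 0.0434 in EOM and 0.00309 in trunk), and so did edgeR in EOM with unscaled library totals (adjusted p = 0.0394).

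Annexin A1, a regulator of inflammation in mammals as well as a repair protein, is also made by leukocytes. Its gene anxa1a (ENSDARG00000026726.9) was at 436, 375 and 374 CPM in WT EOM replicates 1, 2 and 3, and at 499, 544 and 529.5 CPM in mutant EOM. In trunk it was at 149, 110.6 and 124 CPM in WT and at 147, 169.5 and 143 CPM in mutants. The EOM groups did not overlap and the trunk groups did. The log2 fold change was 0.41 ± 0.12 in EOM (edgeR, adjusted p = 0.113, with DESeq2 0.0434) and 0.27 ± 0.15 in trunk (edgeR, adjusted p = 0.3, with DESeq2 0.334).

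Annexin A2 and S100A10 form a complex in mammals. Levels of anxa2a (ENSDARG00000003216.7) were 286, 366 and 244 CPM in WT EOM replicates 1, 2 and 3, and 425, 375 and 302 CPM in mutant EOM. In trunk they were 85.3, 63.3 and 97.5 CPM in WT and 109.6, 139.7 and 119 CPM in mutants. The EOM groups overlapped and the trunk groups did not. The log2 fold change was 0.30 ± 0.18 in EOM (edgeR, adjusted p = 0.445) and 0.58 ± 0.18 in trunk (edgeR, adjusted p = 0.0691). The trunk value passed the threshold with DESeq2 (adjusted p = 0.0245), with no filter on low counts (edgeR, 0.0316) and without WT trunk replicate 3 (edgeR, 0.016), which held the highest WT level.

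The partner gene s100a10b (ENSDARG00000025254.9) was at 310.3, 376 and 280 CPM in WT EOM replicates 1, 2 and 3, and at 394, 408 and 329.5 CPM in mutant EOM. In trunk it was at 83.4, 57 and 83.1 CPM in WT and at 95.9, 112.2 and 104.7 CPM in mutants. As for anxa2a, the genotypes overlapped in EOM and did not overlap in trunk. The log2 fold change was 0.23 ± 0.15 in EOM (edgeR, adjusted p = 0.465) and 0.49 ± 0.17 in trunk (edgeR, adjusted p = 0.101), and the trunk value passed without WT trunk replicate 3 (edgeR, adjusted p = 0.0444).

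Across libraries of a muscle, anxa2a and s100a10b varied together. This pair was looked at after its values were seen, in 2 relations, one per muscle. On log2 CPM, Pearson's r was 0.963 in EOM (n = 6, two-sided exact permutation p = 0.0139, adjusted p = 0.0139) and Spearman's rho was 0.943 (exact permutation p = 0.0167, adjusted p = 0.0167). In trunk r was 0.979 (n = 6, exact permutation p = 0.00556, adjusted p = 0.0111) and rho was 0.943 (exact permutation p = 0.0167, adjusted p = 0.0167). Without the 2 libraries farthest from the median of anxa2a, r was 0.977 in EOM and 0.92 in trunk (n = 4 each). The ratio of s100a10b to anxa2a counts, not corrected for transcript length, ranged from 0.929 to 1.15 in EOM and from 0.803 to 0.977 in trunk. The adjustment covers these 2 relations only and not the choice of the pair. How many other genes reach such values with either gene within a muscle was not counted. Over all 12 libraries other genes, led by icn (r = 0.997), were more like s100a10b than anxa2a was (r = 0.992). The relation is thus not shown to be particular to this pair. The permutations mixed WT and mutant libraries, and in trunk the genotypes lie apart in both genes. The p-values therefore do not test a relation within genotypes, which was not tested.

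**Figure D3:**
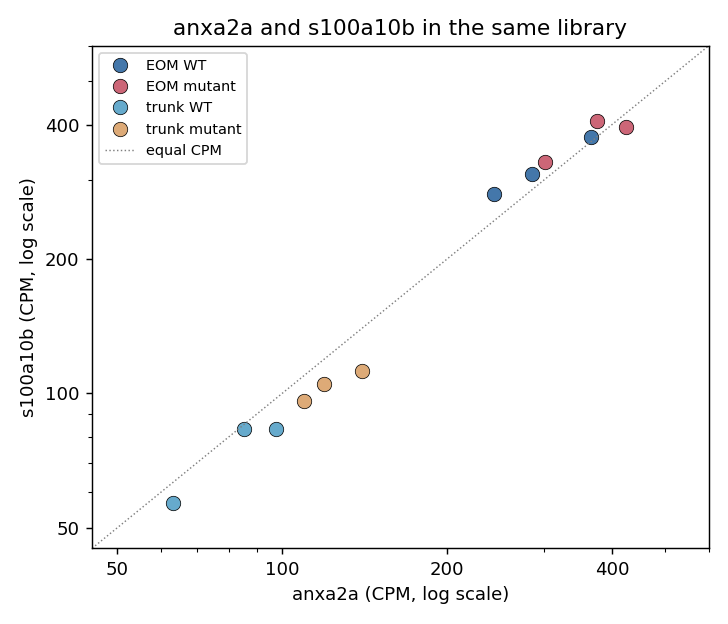
Level of s100a10b against that of anxa2a in each of 12 libraries (CPM, log scales on both axes), coloured by group, with a dotted line of equal CPM. The 6 EOM libraries lie at 244 to 425 CPM of anxa2a and the 6 trunk libraries at 63.3 to 139.7 CPM, and within each muscle libraries high in one gene are high in the other.

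The leukocyte and fibroblast marker sums given above were higher in mutant libraries of both muscles without overlap. So were capn3b and anxa5b in both muscles, anxa1a in EOM, and cav3, anxa2a and s100a10b in trunk. Of 9 tested leukocyte markers 7 were called higher in EOM and 9 in trunk, and of 9 fibroblast markers 1 and 3 were. The part of these cells in the levels of the members was not tested.

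Annexin A6, a large annexin with a doubled core, joins the repair cap in mouse muscle. Levels of anxa6 (ENSDARG00000013335.10) were 47.5, 119 and 97.5 CPM in WT EOM replicates 1, 2 and 3, and 80.8, 44.1 and 71.8 CPM in mutant EOM. In trunk they were 42.8, 82 and 84 CPM in WT and 14.5, 87.8 and 60.7 CPM in mutants. All groups overlapped, and mutant trunk replicate 1 held the lowest level, with 673 reads. The spread between replicates was 41.7%, 29.2%, 33.4% and 68.3% of the mean in WT EOM, mutant EOM, WT trunk and mutant trunk. It exceeded the spread of 86.9% to 98.6% of the genes with at least 50 reads on average, whose median was 12% to 15.8%. The other 7 detected members had spreads of 2.24% to 21.2%. The log2 fold change of anxa6 was −0.42 ± 0.33 in EOM (edgeR, adjusted p = 0.559) and −0.36 ± 0.70 in trunk (edgeR, adjusted p = 0.8), and the trunk value turned to 0.088 without mutant trunk replicate 1. In the RefSeq table the gene overlaps n4bp3, capn3b overlaps znf106b and anxa5b overlaps uchl1. Reads that fell on several genes of the counted strand were tallied apart as ambiguous. In WT EOM replicate 1 the count of either strand was below the sense count for capn3b (232 against 435 reads) and anxa5b (3617 against 4848). For anxa6 it was 3111 against 3110. The sense counts of capn3b and anxa5b thus kept reads that the count of either strand left out.

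Whether genotypes differed by unequal amounts in EOM and trunk was tested as the difference of the log2 fold changes. None of the 8 members was called (0 by edgeR and 0 by DESeq2), in a comparison where 0.0914% of 19687 genes were called, and 1 member, cav3, had an unadjusted p under 0.05, as had 9.8% of all genes. For cav3 the difference, EOM minus trunk, was −0.58 ± 0.20 (edgeR, adjusted p = 0.377). It ranged from −0.69 to −0.45 over 19 alternatives, with adjusted p-values from 0.166 to 0.649. For capn3b the difference was −0.38 ± 0.20 (edgeR, adjusted p = 0.551). For the remaining 6 genes it lay between −0.28 (anxa2a) and 0.16 (anxa1a), with edgeR adjusted p-values of 0.753 to 0.991. A call in trunk without one in EOM, as for cav3 and anxa5b, was thus not shown to be a difference between the muscles.

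Between the WT muscles the members differed widely. The WT libraries are also those of the genotype comparisons. In WT EOM anxa1a, anxa2a, anxa5b, s100a10b and cav3 were higher than in WT trunk and dysf and capn3b were lower, so that 7 of 8 members were called, against 48.8% of all 18430 genes tested. The libraries of these 7 members did not overlap between the WT muscles, as was true of 60.3% of all genes.

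Except for anxa6, the annexin genes among the members and the annexin partner were higher in EOM by several fold. The level of s100a10b was 322 ± 48.9 CPM (SD, n = 3) in WT EOM against 74.5 ± 15.2 CPM in trunk, a log2 change of 2.11 ± 0.21 (edgeR, adjusted p = 7.91e-05). For anxa2a it was 299 ± 62.3 and 82 ± 17.4 CPM, a log2 change of 1.86 ± 0.22 (edgeR, adjusted p = 0.000234). For anxa5b the log2 change was 1.67 ± 0.14 (edgeR, adjusted p = 3.35e-05) and for anxa1a 1.63 ± 0.17 (edgeR, adjusted p = 0.000105). No alternative changed these 4 calls. The fibroblast and leukocyte marker sums differed in the same direction, at 1345 ± 16.8 against 484 ± 120 CPM and 655 ± 19.2 against 225 ± 8.8 CPM. So did those of nerve and myelin (756 ± 51.2 against 272 ± 51.4 CPM) and erythrocytes (1595 ± 636 against 383 ± 69.6 CPM). Lower in EOM were the sums of endothelium (136 ± 14.7 against 275 ± 6.09 CPM) and smooth muscle (92.7 ± 15.4 against 155 ± 14.8 CPM). The muscle fibre sum was also lower, at 33801 ± 3282 against 114508 ± 14705 CPM. Those of photoreceptors and of epithelium and skin overlapped. All these sums were taken with TMM scaling only. Unscaled library totals moved the median log2 change of all genes by 0.60 towards EOM, so the smaller differences and overlaps among the sums may depend on the scaling. The part of all these cells in the levels of the members was not tested. Levels of anxa6 did not differ detectably, with a log2 change of 0.34 ± 0.36 (edgeR, adjusted p = 0.466).

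The genes of the muscle proteins differed in direction. In WT EOM the level of capn3b was 4.95-fold lower (log2 fold change −2.31 ± 0.16, edgeR, adjusted p = 1.24e-05), a call that held in all 14 alternatives. Levels of dysf were lower by 1.61-fold, at 25.2 ± 2.65 against 40.7 ± 4.9 CPM (log2 fold change −0.69 ± 0.14, edgeR, adjusted p = 0.00428). Levels of cav3 were higher by 1.52-fold, at 147 ± 21.1 against 96.9 ± 4.15 CPM (log2 fold change 0.61 ± 0.15, edgeR, adjusted p = 0.0103), a call lost without WT trunk replicate 1 (edgeR, adjusted p = 0.0673). Scaling mattered here, since unscaled library totals moved the median of all genes by 0.60 on the log2 scale and the share of calls that were higher in EOM from 52.4% to 82.4%. With them the dysf value was −0.08 (edgeR, adjusted p = 0.662) and the other 6 calls were kept, with cav3 at 1.20 and capn3b at −1.71.

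**Figure D4:**
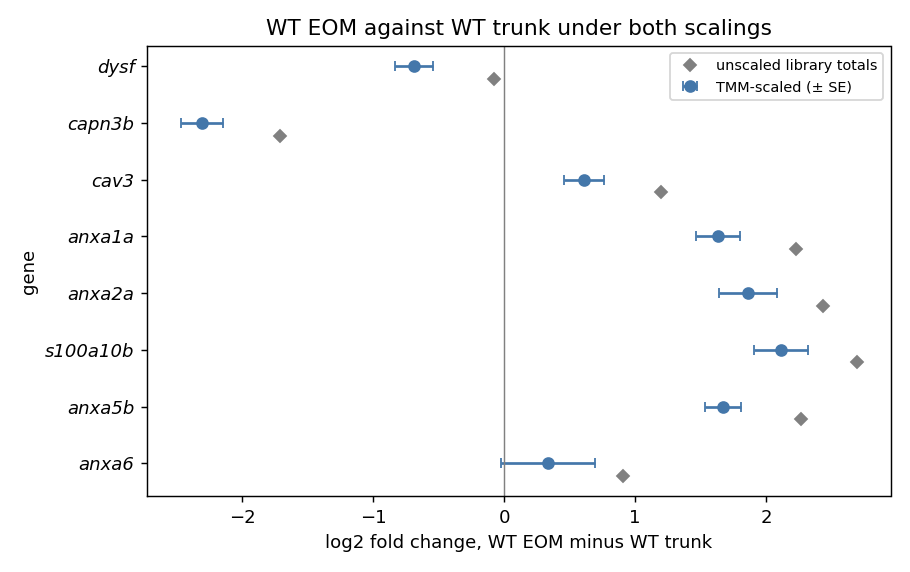
Log2 fold change of WT EOM against WT trunk for 8 genes with TMM scaling (circles, bars of 1 standard error) and with unscaled library totals (diamonds). With TMM scaling dysf and capn3b lie below 0 and the others above, and with unscaled totals dysf lies near 0, at −0.08.

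Further genes of membrane repair were counted from a wider list of ferlins, annexins, S100 partners, calpains, caveolar genes, repair scaffolds, ESCRT genes (a membrane-cutting complex that also seals small wounds) and fusion proteins. Of its 55 genes 53 were matched, all but capn1b and trim72. In EOM edgeR called none of 45 tested genes higher and 1 lower, and 12 had an unadjusted p under 0.05 in either direction. The gene that fell was otofa, the otoferlin gene named for its role in the ear, from 3.25 ± 0.633 to 1.58 ± 0.143 CPM (log2 fold change −1.04 ± 0.20, edgeR, adjusted p = 0.0342), a call lost whenever any of the 6 libraries was omitted. The edgeR shares among all genes in EOM were 2.15% higher, 1.4% lower and 18.5% with an unadjusted p under 0.05. DESeq2 called 3 of the 53 list genes it fitted in EOM higher and 2 lower. Over all 27038 genes it fitted there, it called 813 higher and 673 lower. With unscaled library totals edgeR called 2 of the 45 higher and 1 lower in EOM, and 549 and 196 of all 18980 genes. In trunk 9 of 42 tested genes rose and 1 fell, where 4.76% of all genes rose and 3.63% fell. With unscaled library totals 6 rose and 1 fell in trunk, as did 559 and 478 of all 17342 genes. DESeq2 called 11 of the 53 list genes it fitted in trunk higher and 1 lower. Over all 26190 genes it fitted there, it called 1032 higher and 973 lower. Over the list the median log2 change was 0.087 in EOM and 0.13 in trunk. For the difference between muscles 0 of 46 tested genes were called by edgeR (0.0914% of all genes) and 9 had an unadjusted p under 0.05 (9.8% of all genes). These 9 include anxa14 and s100a11, which held at most 11 and 3 reads in a trunk library. Both entered the test only through EOM, so the count of 9 is partly one of genes near the floor in trunk. DESeq2 called 3 of the 53 list genes it fitted, and 194 of all 27799 genes it fitted.

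The gene that fell in trunk was fer1l6, a ferlin related to dysferlin, from 2.79 ± 0.343 to 0.561 ± 0.132 CPM (log2 fold change −2.30 ± 0.26, edgeR, adjusted p = 0.000826). By size of change, the genes that rose were led by ehd2a, anxa3b, anxa4, capn1a and cavin4a. The annexin genes anxa3b and anxa4 rose from 16.2 ± 0.838 to 28.6 ± 5.6 CPM (edgeR, adjusted p = 0.0115) and from 20.9 ± 2.54 to 36.5 ± 1.44 CPM (edgeR, adjusted p = 0.00488). The ubiquitous calpain gene capn1a rose from 29.1 ± 2.03 to 44.6 ± 2.04 CPM (edgeR, adjusted p = 0.0115). The caveolar genes cavin4a and ehd2a rose from 183 ± 19.4 to 273 ± 19.4 CPM (edgeR, adjusted p = 0.028) and from 1.15 ± 0.244 to 2.31 ± 0.147 CPM (edgeR, adjusted p = 0.0258). Both calpain small subunit genes, capns1a and capns1b, as well as pacsin3 and pdcd6, made up the rest. With each of the 6 libraries left out in turn, the calls of fer1l6 and anxa4 held every time, whereas those of anxa3b, capn1a, cavin4a and ehd2a held in 4, 3, 3 and 2 of them.

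Between the WT muscles 20 of 46 tested genes of the wider list were higher in EOM and 7 were lower, and with unscaled library totals 32 were higher and 3 lower. Over all 18430 genes 4713 were called higher and 4278 lower, and with unscaled totals 9006 and 1920. The 6 tested calpain genes of the list and 8 of its 12 tested annexin genes were among those higher, with either scaling. These calpain genes do not include capn3b, which was lower in EOM, nor a further ID with the symbol CAPN1 (ENSDARG00000055338.9) that was not resolved to a zebrafish name. Over the 12 libraries the level of that ID was close to that of dysf (r = 0.984), which was lower in WT EOM with TMM scaling. Its own difference between the WT muscles is not given here, so the count does not cover every calpain gene. The caveolar gene cavin1a was at 6.93 ± 2.51 CPM in WT EOM against 33 ± 7.81 CPM in trunk (log2 fold change −2.25 ± 0.27, edgeR, adjusted p = 0.000261). The annexin gene anxa4 was at 96.8 ± 11.4 CPM in WT EOM against 20.9 ± 2.54 CPM in trunk (log2 fold change 2.22 ± 0.16, edgeR, adjusted p = 1.63e-05). The other 4 genes that the naming rule selected, anxa2b, anxa14, s100a11 and anxa3a, reached at most 0.671 CPM in any WT library. Of these anxa2b, anxa14 and s100a11 are among the 20 counted as higher, and anxa2b and anxa14 among the 8 annexin genes. They held at most 0, 2 and 3 reads in a WT trunk library and entered the test only through WT EOM. Their direction was thus set by the filter. They are included in the counts of higher genes with either scaling, and there they are no evidence of a direction.

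The genes whose level was most like that of each member over the 12 libraries were found by Pearson's r of log2(CPM + 1) among 14314 genes with at least 50 reads on average. As the muscles differ in most genes, these values largely describe the contrast between EOM and trunk, and they carry no p-value. The gene most like anxa2a was s100a10b (r = 0.992) and that most like anxa5b was anxa4 (r = 0.997). For s100a10b it was icn (r = 0.997), which encodes the fish S100 protein ictacalcin and lies near s100a10b on the same chromosome. The summed level of 8 markers of skin and epithelium was 811 to 1227 CPM in EOM and 511 to 918 CPM in trunk, and its part in the s100a10b level was not tested. The most similar gene was slc34a2b for dysf (r = 0.987), twsg1a for anxa1a (r = 0.996), zgc:174895 for capn3b (r = 0.987) and rp9 for cav3 (r = 0.983). For anxa6 the highest value was lower, at r = 0.847 with zmat1. Next in order came dusp3b and CAPN1 for dysf, htra3b and fam171a2a for anxa1a, ppib and tescb for anxa2a, and galnt16 and arpin for anxa5b. They were wu:fi42h12 and nup35 for anxa6, si:ch211-133n4.4 and tescb for s100a10b, ENSDARG00000117587.1 and lemd1 for capn3b, and mtres1 and kdm8 for cav3.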

How the data were processed

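The authors deposited 1 table of raw read counts for each library. The submitters' processing notes name STAR, DESeq2 and the build GRCz11. The aligner's version and the annotation are not given in the sources used here. The first single-strand count was taken as the sense count, because the other column held 2.77% to 3.21% of stranded reads. The 4 tallies of reads in no gene were left out. As shares of all reads, unmapped reads made up 7.93% to 14.3% and multimapping reads 9.96% to 11.4%. Reads in no gene of the counted strand made up 5.93% to 9.57% and ambiguous ones 1.34% to 1.59%. Since multimapping reads enter no gene count, near-identical paralogs can be undercounted.

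Symbols came from the symbol table supplied and RefSeq's gene table of assembly GRCz12tu. Of 32520 IDs, 16965 carried one symbol in the 2 sources, and neighbouring genes resolved a further 3881. Of the members anxa1a, anxa2a, capn3a and capn3b were resolved by neighbours. No coordinates are given as the builds differ, and levels were not compared between genes because transcript lengths were not used here.

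Counts were tested with edgeR 4.0.16 (R 4.3.3) by a robust quasi-likelihood fit on the whole table, with filterByExpr, TMM factors (0.706 to 1.37 over all 12 libraries) and Benjamini-Hochberg adjustment within each of 4 comparisons. Standard errors are those implied by the F statistic. Each two-group comparison was fitted on its own 6 libraries, and the difference between muscles on all 12. Fits were tested on simulated data. Alternatives were DESeq2 1.42.0, the count of either strand, other scalings and filters, a replicate block, 1 fit of all libraries and leaving out each library. Libraries of a group differed beyond counting noise (chi-square per degree of freedom 24.9 to 89.7). Figures were drawn with matplotlib 3.10.9 and exact permutation tests used scipy 1.17.1.

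Members and lists were chosen with earlier results of these data known. The text names all 9 members, at most 6 called genes of the wider list per comparison by size of change, and genes most similar to each member. It names the rest of the called genes of the wider list in trunk without values.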

Additional observations from a re-analysis of the deposited data

How the results depend on the processing

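In EOM 675 genes and 1 member were called in the reported fit. DESeq2 called 1486 genes and 3 members, and unscaled library totals gave 745 genes and 2 members. Fits that left out a library gave 127 to 648 genes and 0 to 1 members. In trunk, with 1456 genes and 3 members called, fits that left out a library gave 488 to 2043 genes and 1 to 5 members. Unscaled totals gave 1037 genes and 1 member there. For the difference between muscles, with 18 genes called, DESeq2 gave 194, the filter of at least 50 reads on average 11, no filter 35 and leaving out a library 5 to 19. The member count was 0 in each of these. The replicate block moved the counts to 1191 genes in EOM and 6 in the difference. Same-numbered libraries of the groups compared correlated in their deviations from the group means at r = −0.247, 0.374 and 0.506 in EOM and 0.121, −0.0726 and 0.0951 in trunk, and between the WT muscles at 0.472, −0.37 and −0.197, so the numbers were not taken to pair the libraries, and the block changed no call of a member.

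Small values changed sign. In EOM dysf spanned −0.021 to 0.12 and cav3 −0.12 to 0.10 when a library was left out, and cav3 was 0.086 with unscaled totals. In trunk anxa6 spanned −0.88 to 0.088. For the difference dysf spanned −0.16 to 0.025 (0.048 with unscaled totals) and anxa6 −0.51 to 0.47 (0.32 with the replicate block, 0.13 with unscaled totals). The causes were not tested. With at most 10 reads in a library, capn3a entered no test.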

Other observations

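The caveolin gene cav4a (ENSDARG00000003632.6), singled out after its values were seen, was lower in mutants of both muscles. It fell from 12.6 ± 0.987 to 5.18 ± 0.803 CPM in EOM (log2 change −1.28 ± 0.15, edgeR, adjusted p = 0.00583) and from 19.3 ± 3.07 to 8.81 ± 0.807 CPM in trunk (log2 change −1.12 ± 0.16, edgeR, adjusted p = 0.00241; SD, n = 3 each). In each muscle all 3 mutant libraries lay under all 3 WT libraries. Of all genes tested, 1.4% were called lower in EOM and 3.63% in trunk. In the opposite direction, higher in mutants, 13.4% and 15.7% of all genes were without overlap. The matching share for genes lower in mutants is not given here, so the lack of overlap alone does not set cav4a apart. Both cav4a calls held in every alternative, with adjusted p-values of at most 0.04 in EOM and 0.0184 in trunk. Its paralog cav4b was not called in either muscle, with log2 fold changes of −0.13 ± 0.19 (edgeR, adjusted p = 0.771) and 0.18 ± 0.18 (edgeR, adjusted p = 0.583).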
